A study of Mus musculus with 37 samples.

Results

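Axon guidance ligands and receptors were compared between dopamine and GABA neurons of the mouse ventral midbrain, and between old and young mice. The genes were taken by symbol: ephrins (Efna, Efnb) and their Eph receptors, semaphorins with their plexin and neuropilin receptors, Slits and their Robo receptors, netrins with the receptors Dcc and Unc5, and the netrin-Gs. Of 57180 genes in the count tables, 71 symbols matched and 69 had at least 100 counts over the 37 libraries. These 69 members comprised 35 ligands and 34 receptors in 10 families. Efna4 and Ntn5, with 49 and 33 counts in all, were below the minimum.

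The measured RNA came from ribosomes carrying the L10a subunit fused to GFP (translating ribosome affinity purification, TRAP). In NuTRAP mice a floxed stop is removed by Cre, so that tagged ribosomes mark the cells that have expressed the Cre driver: the dopamine transporter gene in DAT;NuTRAP mice, and the vesicular GABA transporter gene in VGAT;NuTRAP mice. Each library came from 1 mouse. There were 9 old DAT;NuTRAP mice (4 females, 5 males), 10 young DAT;NuTRAP mice (5 females, 5 males), 8 old VGAT;NuTRAP mice (5 females, 3 males) and 10 young VGAT;NuTRAP mice (6 females, 4 males). Old mice were 21 months of age, except 1 VGAT;NuTRAP female of 24 months, and young mice were 7 to 10.5 months. All 37 animals carried the NuTRAP allele and a Cre, and no treatment was given in the labels. Below, DAT and VGAT stand for libraries of these models.

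Guidance cues are secreted or membrane-bound proteins that attract or repel growing axons through receptors on the growth cone. During development netrin-1 and DCC, Slits and Robos, semaphorins and their neuropilin and plexin receptors, and ephrins and Ephs all take part in guiding midbrain dopamine axons toward the forebrain. In the adult brain many of these genes remain expressed, and several have known roles at synapses.

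Libraries held 13841253 to 38235015 counts. The labelled cell types were checked with marker genes, summed as CPM (counts scaled to library size, with TMM factors). The 16 dopamine neuron markers summed to 15882 to 22514 CPM in old DAT, 17666 to 23596 in young DAT, 2702 to 4054 in old VGAT and 1385 to 5020 in young VGAT libraries. The 11 GABA neuron markers summed to 593 to 991 CPM in old DAT, 587 to 996 in young DAT, 4349 to 5479 in old VGAT and 4491 to 5885 in young VGAT libraries. Markers of other cells were also present, and none was at 0 in all libraries of a model. Astrocyte markers (20 genes) summed to 2189 to 4515, 1781 to 3731, 1560 to 2184 and 1424 to 1837 CPM in the same order of groups, and endothelial and mural markers (13 genes) to 172 to 432, 131 to 404, 79.6 to 141 and 83.4 to 128 CPM. The labels gave each model a second batch (11 DAT and 12 VGAT libraries) and a first batch (8 DAT and 6 VGAT libraries) without saying that a batch was shared by both models. Second-batch DAT libraries detected 14323 to 18170 genes, fewer than first-batch DAT libraries (19085 to 21051), second-batch VGAT libraries (18485 to 21803) and first-batch VGAT libraries (19482 to 21176). In 2 DAT libraries, Young Female 3 and Old Male 5, the ribosomal RNA gene Rn18s-rs5 took 7.005% and 6.642% of counts. Since each library pools the tagged cells of 1 midbrain, fewer cells of a type and less RNA per cell cannot be told apart.

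Levels were first set in order within each model, as mean CPM per kb of exon, so that genes of different length could be compared. In DAT libraries Ntn1, the secreted attractant netrin-1, stood first at 54.7 CPM per kb. The transmembrane semaphorin Sema6b (26.6), the membrane-anchored semaphorin Sema7a (23.9), the transmembrane semaphorin Sema6d (20.3) and ephrin-B3, Efnb3 (20), followed. In VGAT libraries Sema7a stood first at 43.4 CPM per kb, before Sema6b (22.9), Efnb3 (16.8) and Sema6d (14.9), and Ntn1 took rank 12 at 11.1. Of the members, 50 of 69 exceeded 1 CPM per kb in DAT libraries and 55 in VGAT libraries, and 20 and 22 exceeded 5. Among the receptors the highest level per length belonged to Epha4, an Eph receptor that binds ephrins of both classes, in DAT libraries (14.3 CPM per kb), and to the netrin receptor Unc5a in VGAT libraries (14.4). Of the Robos, Robo2 was highest per length in both models, and of the Slits, Slit1.

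**Figure D1:**
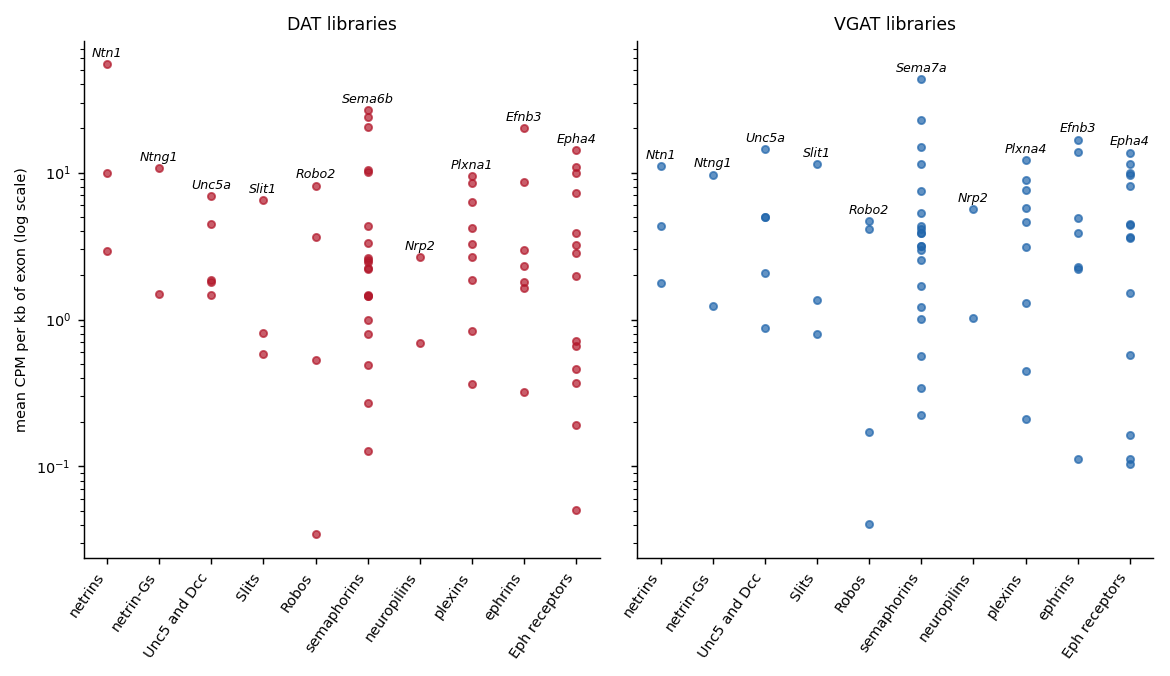
Level of each of the 69 members in DAT libraries (left) and VGAT libraries (right), as mean CPM per kb of exon on a log scale, by family. Points are genes, and the highest of each family is named: Ntn1 led all members in DAT libraries (54.7) and Sema7a in VGAT libraries (43.4).

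The 2 models were then compared over both ages, with batch as a term of the model (edgeR quasi-likelihood test, Benjamini-Hochberg adjustment over all genes, threshold 0.05). This fit, and the comparisons within a single batch, took the first and second batch as shared by DAT and VGAT libraries, which the labels do not state. All 69 members passed the filter on low counts, and 51 passed the test: 20 were higher and 31 lower in DAT libraries. The test passed 60.5% of all 16898 genes, with 30.0% higher and 30.4% lower in DAT. The members' share higher (29%) was therefore near that of all genes, and their share lower (44.9%) was above it. This lean toward lower was not seen in each batch. With first-batch libraries alone 22 members were higher and 18 lower, and with second-batch libraries alone 15 were higher and 39 lower. The median log2 fold change, DAT over VGAT, was -0.24 over the members and 0.01 over all genes tested. All 3 netrins were higher in DAT libraries, and all 3 Slits and both neuropilins were lower. Ligands gave 12 higher and 17 lower of 35, and receptors 8 higher and 14 lower of 34. Beyond a log2 fold change of 1 in size, 7 members were higher and 14 lower, and the share of all genes beyond it was not counted. The remaining 18 did not pass, of which 12 had a log2 fold change under 0.25 in size.

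Within each age the picture was of similar size. In old mice 42 members passed, 15 higher and 27 lower in DAT, where 46.8% of all genes passed (22.7% higher, 24.1% lower). In young mice 43 members passed, 16 higher and 27 lower, where 49.8% of all genes passed (24.3% higher, 25.4% lower). At both ages, 36 members passed with the same sign (13 higher, 23 lower), which is 52.2% of members against 40.4% of all genes. In 2 members every DAT library lay above every VGAT library (Ntn1 and Ntn4), an order found in 3.37% of all genes. In 6 members every DAT library lay below every VGAT library (Epha8, Ephb1, Unc5d, Plxna2, Sema3c and Sema6a), against 4.99% of all genes. The other 61 members overlapped. Without the DAT library Young Female 3, 49 members passed over both ages (18 higher, 31 lower), and without Old Male 5 also 49 (17 higher, 32 lower).

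**Figure D2:**
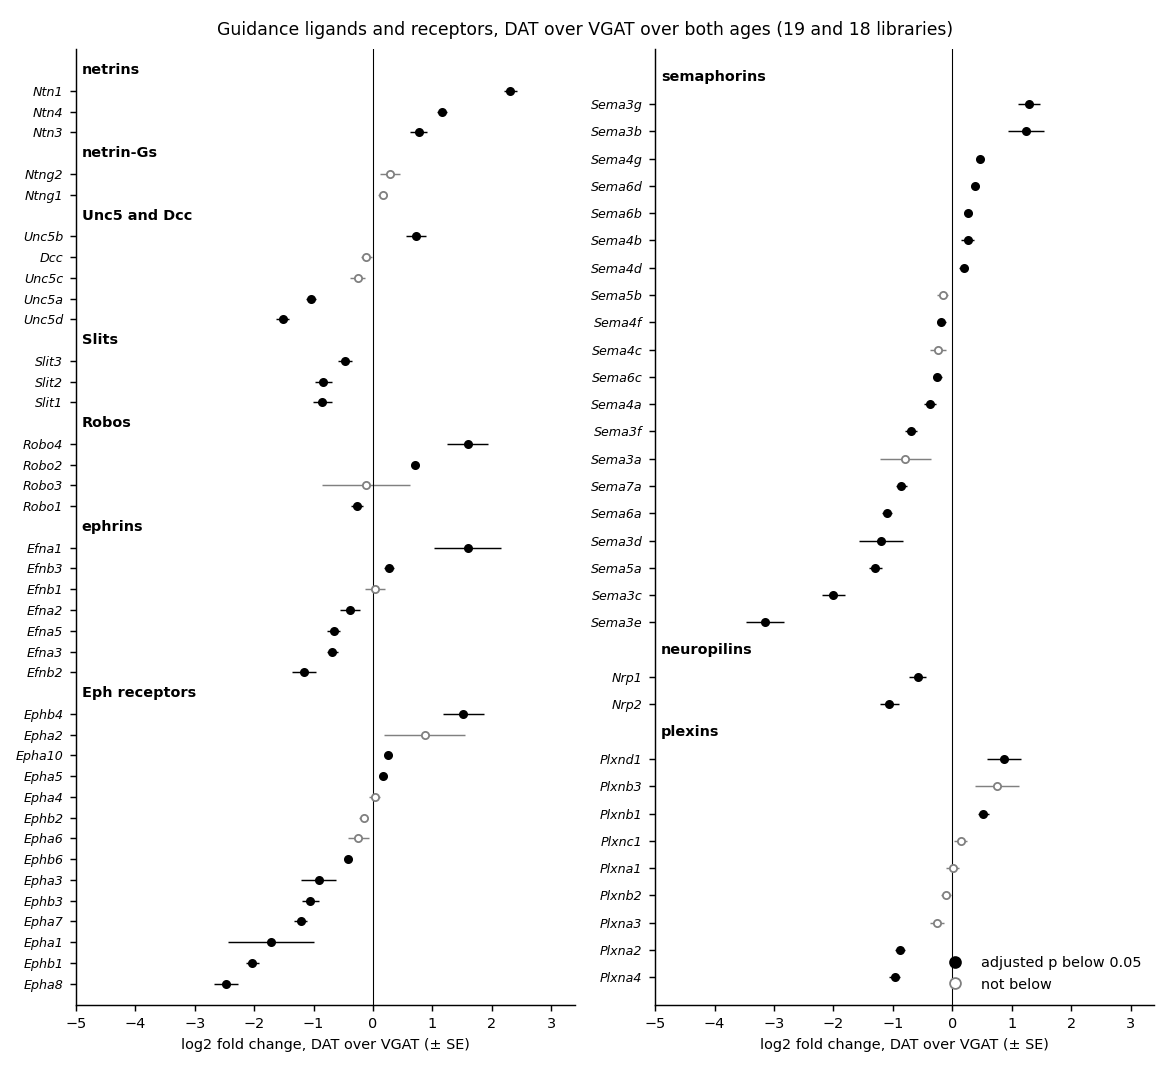
Log2 fold change, DAT over VGAT over both ages (19 and 18 libraries), with its SE, for the 69 members by family. Filled points had an adjusted p below 0.05. Netrins lie to the right of 0 and Slits and neuropilins to the left, and the ends are Ntn1 (2.31) and Sema3e (-3.15).

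The difference between models itself depended on batch for a share of the members. With second-batch libraries alone 54 members passed (15 higher, 39 lower in DAT), where 56.6% of all genes passed. With first-batch libraries alone 40 passed (22 higher, 18 lower), against 43.9% of all genes. Together and in each batch alone, 28 members passed with the same sign (12 higher, 16 lower), which is 40.6% of members against 30.3% of all genes. The shares of all genes were not split by direction for these counts, nor for the members that passed at both ages. Of the 51 members that passed with batches together, 47 had the same sign in each batch, the exceptions being Epha3, Epha5, Robo1 and Slit1. The 51 were called from these same libraries, and the matching share of all genes was not counted. A direct test of the difference between batches (second minus first), chosen after the data were seen, passed 25 members. All 25 were lower in DAT relative to VGAT in the second batch than in the first, where 29.1% of all genes passed and 16.4% were lower. The median of this difference was -0.44 over the members and -0.03 over all genes. These 25 comprised Slit1, Slit2, Robo1, Robo2, Dcc, Unc5c, Nrp1, Nrp2, Efna5, Efnb2, 5 Eph receptors (Epha3 to Epha7), 6 plexins (Plxna1 to Plxna4, Plxnb2 and Plxnc1), Sema3e, Sema4g, Sema5a and Sema6d. Second-batch DAT libraries also had higher oligodendrocyte marker sums (1214 to 2560 CPM) than first-batch ones (553 to 834), as well as fewer genes detected. Median marker sums in first- and second-batch DAT libraries were 859 and 695 CPM for GABA neurons, and 136 and 64.3 CPM for glutamate neurons (3 markers). For astrocytes they were 2226 and 3279 CPM, and for dopamine neurons 19924 and 20335 CPM. In VGAT libraries the GABA neuron medians were 5344 and 4771 CPM. The part of any of these in the differences between batches was not tested. Values within each batch are therefore given beside the pooled one for each member described below whose call ended in a single batch, and for the members with the largest differences.

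**Figure D3:**
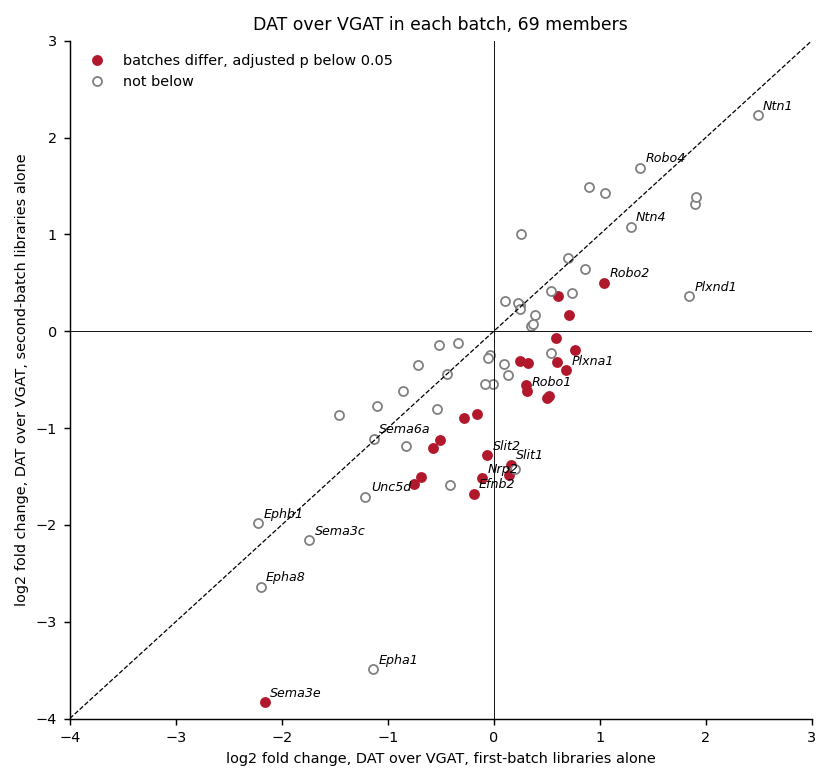
Log2 fold change, DAT over VGAT, from second-batch libraries alone (vertical axis) against first-batch libraries alone (horizontal axis), 1 point per member, with the line of equal values dashed. Filled points are the 25 members whose difference between models differed between batches (adjusted p below 0.05), and all 25 lie below the dashed line.

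Promoter sequence was looked at for members that differed in 1 direction. Windows of 300 bases (250 before to 50 after the gene start) were taken from a RefSeq table of GRCm38.p6 for 59 of 69 members. Genes on the chromosome that holds Dcc were left out beforehand, among the members and among all genes alike. Shown here are Ntn4, whose DAT libraries all lay above the VGAT libraries, and Ephb1 and Sema3e, the receptor and the ligand with large differences toward VGAT; CG dinucleotides are in capitals. The Ntn4 window (chr10:93640799-93641098, plus strand) held 31 CG, the Ephb1 window (chr9:102354644-102354943, minus strand) 14 and the Sema3e window (chr5:14025026-14025325, plus strand) 11.
Ntn4: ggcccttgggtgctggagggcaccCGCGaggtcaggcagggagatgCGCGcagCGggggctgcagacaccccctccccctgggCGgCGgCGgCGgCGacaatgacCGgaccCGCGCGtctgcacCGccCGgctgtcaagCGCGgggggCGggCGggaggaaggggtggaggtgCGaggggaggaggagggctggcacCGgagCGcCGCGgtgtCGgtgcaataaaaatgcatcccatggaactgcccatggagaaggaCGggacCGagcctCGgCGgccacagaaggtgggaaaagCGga
Ephb1: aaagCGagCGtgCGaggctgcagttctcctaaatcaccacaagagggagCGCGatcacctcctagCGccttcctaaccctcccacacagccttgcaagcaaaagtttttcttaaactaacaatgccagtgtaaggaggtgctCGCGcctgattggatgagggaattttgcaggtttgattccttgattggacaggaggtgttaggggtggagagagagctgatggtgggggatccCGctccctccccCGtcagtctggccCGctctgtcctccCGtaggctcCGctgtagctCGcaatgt
Sema3e: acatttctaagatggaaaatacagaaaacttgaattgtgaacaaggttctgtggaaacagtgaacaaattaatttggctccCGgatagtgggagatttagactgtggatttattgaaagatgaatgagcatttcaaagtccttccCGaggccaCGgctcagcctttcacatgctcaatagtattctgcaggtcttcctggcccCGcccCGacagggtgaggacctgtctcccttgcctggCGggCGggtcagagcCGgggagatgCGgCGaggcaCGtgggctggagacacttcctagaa
The median count of CG was 23 over the 59 members with a window and 8 over 27025 genes, with the largest count taken for a gene with several windows. The 27025 genes were not limited to genes with counts in these libraries, while each member had at least 100, so the sets are unlike. At least 10 CG were found in 86.4% of members and in 45.8% of all genes. Members higher in DAT (17 windows, median 21) and members lower in DAT (26 windows, median 24) both had more than the median gene. Letters bound by factors of dopamine and GABA neurons were searched on both strands. The Nr4a motif AAAGGTCA (in 1.70% of all genes with a window) and the Fox motif TGTTTAC (4.05%) were in no member's window. The Pitx motif TAATCC (8.14%) was in Robo4 and Robo3, the homeodomain motif TAATTA (6.12%), which shares TAAT with it, in Efna1, Epha5 and Robo3, and the Gata motif AGATAA (12.7%) in Robo2 and Epha3.

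Netrins were higher in DAT libraries. Netrin-1, the secreted cue that attracts axons through DCC and can repel them through Unc5 receptors, is encoded by Ntn1 (GRCm39 chr11:68100190-68291662, minus strand). Ntn1 had 293, 347 and 478 CPM (lowest, median, highest) in old DAT and 259, 349 and 427 CPM in young DAT libraries, against 51.3, 84.4 and 89.8 CPM in old VGAT and 30.8, 70.7 and 94.2 CPM in young VGAT libraries. Every DAT library lay above every VGAT library. The log2 fold change was 2.31 ± 0.11 (SE), or 4.97-fold, with an adjusted p of 7.57e-21. It was 2.23 with second-batch and 2.49 with first-batch libraries alone, so the size was similar in each batch. Ntn4 (chr10:93476543-93583069, plus strand) encodes netrin-4, a basement membrane netrin that binds laminin. Ntn4 had 26.9, 39.7 and 49.9 CPM in old DAT and 27.2, 37.1 and 48.5 CPM in young DAT libraries, against 16.5, 18.9 and 20 CPM in old VGAT and 11.2, 15.3 and 18.4 CPM in young VGAT libraries. The groups did not overlap here either. Its log2 fold change was 1.16 ± 0.08 (2.24-fold, adjusted p = 2.43e-16), with 1.08 and 1.29 in the second and first batch. Ntn3, another secreted netrin, had a median of 14.9 CPM in DAT and 9.18 CPM in VGAT libraries (0.77 ± 0.14, adjusted p = 1.47e-05; 0.76 and 0.70 in the second and first batch), and its libraries overlapped (5.42 to 25.3 against 4.61 to 13.9 CPM).

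The netrin receptors divided. Dcc (chr18:71386705-72484179, minus strand), the attractive netrin-1 receptor, had 35.7, 60.6 and 76.9 CPM in old DAT and 43.5, 58 and 73 CPM in young DAT libraries, against 35.1, 79.9 and 91.9 CPM in old VGAT and 43.3, 56.7 and 81.1 CPM in young VGAT libraries. All groups overlapped, and the log2 fold change was -0.11 ± 0.10 (adjusted p = 0.309). Its values within batches had opposite signs, with -0.33 (adjusted p = 0.00231) for second-batch and 0.32 (adjusted p = 0.0596) for first-batch libraries. Among the Unc5 receptors, which mediate repulsion by netrins, Unc5d (chr8:29136745-29709664, minus strand) differed most. It had 9.48, 15.2 and 24.1 CPM in old DAT and 10, 16.8 and 31.9 CPM in young DAT libraries, against 38.5, 45 and 58 CPM in old VGAT and 38.5, 47 and 54.2 CPM in young VGAT libraries. No DAT library reached the lowest VGAT library, and the log2 fold change was -1.52 ± 0.11 (2.86-fold lower, adjusted p = 2.05e-15), with -1.71 and -1.21 in the second and first batch. Unc5a was also lower, with a median of 36.3 CPM in DAT and 78.8 CPM in VGAT libraries (-1.04 ± 0.09, adjusted p = 1.62e-13), and the ranges overlapped (26.6 to 54.7 against 45.4 to 96.7 CPM). Unc5b, which has a known role in vessels, was higher (medians 8.79 and 5.24 CPM, 0.72 ± 0.17, adjusted p = 2.54e-04), with 1.00 from second-batch and 0.26 (adjusted p = 0.373) from first-batch libraries. Unc5c did not pass over both batches (-0.26 ± 0.12, adjusted p = 0.068), but passed in each batch alone with opposite signs, -0.69 in the second and 0.50 in the first.

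The netrin-Gs, GPI-anchored synaptic relatives of netrins that bind Lrrc4c and Lrrc4 rather than DCC, did not pass over both ages. Ntng1 had a median of 92.9 CPM in DAT and 82.2 CPM in VGAT libraries (0.16 ± 0.08, adjusted p = 0.0809; 0.05 in the second and 0.35 in the first batch), and Ntng2 5.38 and 4.97 CPM (0.29 ± 0.17, adjusted p = 0.134). With batch nested in model Ntng1 passed (0.20, adjusted p = 0.0331). In old mice alone Ntng2 was higher in DAT (0.74, adjusted p = 0.0126). Binding partners of the netrin-Gs were lower with both batches together: Lrrc4c, which binds netrin-G1, at -1.19 (adjusted p = 1.69e-15) and Lrrc4, which binds netrin-G2, at -1.14 (adjusted p = 8.67e-15).

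**Figure D4:**
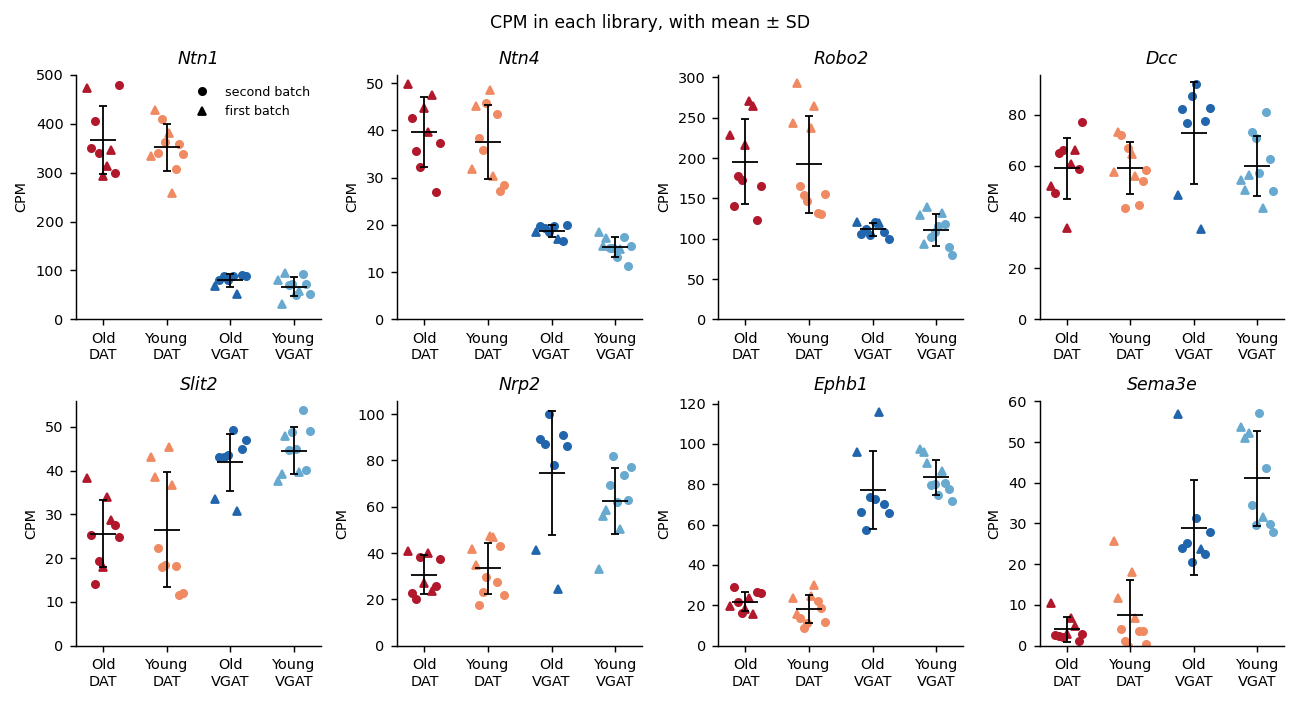
CPM in every library for 8 members, in old and young DAT and old and young VGAT libraries, with mean ± SD; circles are second-batch and triangles first-batch libraries. Ntn1 and Ntn4 lie above the VGAT range in every DAT library and Ephb1 below it, while Dcc overlaps in all groups and Slit2 and Nrp2 separate mainly among second-batch libraries.

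Slits, secreted repellents, were lower in DAT libraries, but not in every batch. Slit2 (chr5:48140480-48465075, plus strand) had 14.1, 25.2 and 38.3 CPM in old DAT and 11.5, 20.4 and 45.4 CPM in young DAT libraries, against 30.7, 43.3 and 49.2 CPM in old VGAT and 37.5, 44.9 and 53.8 CPM in young VGAT libraries. Its log2 fold change was -0.84 ± 0.14 (adjusted p = 2.77e-06). In second-batch libraries Slit2 had 11.5, 18.5 and 27.6 CPM in DAT against 40.2, 45 and 53.8 CPM in VGAT (-1.28, adjusted p = 1.4e-11). In first-batch libraries it had 18, 37.5 and 45.4 CPM in DAT against 30.7, 38.3 and 47.8 CPM in VGAT (-0.06, adjusted p = 0.736), so that the models were apart in the second batch and overlapped in the first. Slit1, another secreted repellent, gave -0.85 ± 0.16 over both batches (adjusted p = 2.1e-05), -1.38 in the second and 0.16 in the first. Slit3 had values below 0 in both, -0.35 (adjusted p = 0.089) in the second and -0.71 (adjusted p = 1.11e-04) in the first, with medians of 7.4 CPM in DAT and 10.3 CPM in VGAT libraries.

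Of the Slit receptors, Robo2 (chr16:73688727-75244270, minus strand) was higher in DAT libraries. Robo2 had 123, 178 and 271 CPM in old DAT and 131, 160 and 293 CPM in young DAT libraries, against 99.2, 110 and 121 CPM in old VGAT and 80.4, 112 and 139 CPM in young VGAT libraries. In old mice the lowest DAT library was above the highest VGAT library, and in young mice the groups overlapped slightly. The log2 fold change was 0.71 ± 0.07 (1.63-fold, adjusted p = 1.09e-11), and it was smaller in the second batch (0.50) than in the first (1.04). That difference between batches itself passed (-0.51 ± 0.11, adjusted p = 4.22e-04). Robo1, the closest relative of Robo2 in axon repulsion, gave -0.27 ± 0.10 over both batches (adjusted p = 0.0162), but -0.62 in the second and 0.31 in the first, each past the threshold, and with batch nested in model it did not pass (-0.14, adjusted p = 0.0599). Robo4, a receptor known from endothelial cells, was higher (medians 2.82 and 0.953 CPM, 1.59 ± 0.34, adjusted p = 1.01e-04). Robo3, which sets midline crossing of commissural axons, was at 0 in 10 of 19 DAT and 4 of 18 VGAT libraries and had at most 38 counts.

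Semaphorins held the largest difference of any member. Sema3e (chr5:14075290-14306719, plus strand), a secreted class 3 semaphorin that binds plexin-D1 directly, had 1.1, 2.83 and 10.5 CPM in old DAT and 0, 3.87 and 25.7 CPM in young DAT libraries, against 20.5, 24.5 and 56.9 CPM in old VGAT and 27.8, 39.1 and 57.2 CPM in young VGAT libraries. Of 19 DAT libraries only the highest young one entered the VGAT range. The log2 fold change was -3.15 ± 0.32 (8.91-fold lower, adjusted p = 1.94e-10), with -3.83 in the second and -2.16 in the first batch. Sema3c (chr5:17779219-17935648, plus strand), a second class 3 semaphorin, had 1.93, 9.02 and 16.4 CPM in old DAT and 1.98, 7.19 and 13.1 CPM in young DAT libraries, against 18.9, 23 and 36.8 CPM in old VGAT and 22.4, 32 and 53.4 CPM in young VGAT libraries. The groups did not overlap, at -2.0 ± 0.20 (4-fold lower, adjusted p = 4.82e-11) over both batches, -2.16 in the second and -1.74 in the first. Sema3d (-1.20 ± 0.37, adjusted p = 0.00468) and Sema3f (-0.70 ± 0.11, adjusted p = 3.11e-07), further class 3 members, were also lower. Sema3d gave -1.59 in the second batch and -0.41 in the first (adjusted p = 0.118), and Sema3f passed in each (-0.80 and -0.54). Sema3a, the classical growth cone collapsing factor, was low in both models (medians 1.78 and 3.32 CPM) and did not pass (-0.79 ± 0.42, adjusted p = 0.107), with -1.42 (adjusted p = 0.026) from second-batch and 0.20 (adjusted p = 0.71) from first-batch libraries.

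Class 3 members were not all lower. Sema3g (1.29 ± 0.19, adjusted p = 8.47e-08) and Sema3b (1.24 ± 0.30, adjusted p = 4.3e-04) were higher in DAT libraries. Sema3g had medians of 10.2 CPM in DAT and 4.17 CPM in VGAT libraries, and Sema3b 2.88 and 1.67 CPM, with overlap in both. In each batch alone both kept their direction and passed. Among membrane semaphorins, Sema5a (-1.29 ± 0.11), Sema6a (-1.10 ± 0.08) and Sema7a (-0.86 ± 0.09) were lower in DAT libraries, each of them in both batches. Sema5a was farther from 0 in the second batch (-1.58) than in the first (-0.75). Sema6a, a transmembrane ligand of plexin-A2 and plexin-A4, had 9.03, 13.2 and 22.2 CPM in DAT against 24.7, 30.8 and 36.2 CPM in VGAT libraries, without overlap, and gave -1.11 and -1.13 in the second and first batch. Sema4g (0.47 ± 0.05, adjusted p = 8.31e-11), Sema6d (0.38 ± 0.07, adjusted p = 4.36e-06) and Sema6b (0.26 ± 0.06, adjusted p = 2.64e-04) were higher by less. Sema6d gave 0.17 in the second and 0.71 in the first batch, both past the threshold, and Sema6b 0.23 in the second and 0.25 in the first, where it did not pass (adjusted p = 0.141). Exons of Sema4g overlap those of Mrpl43 on the opposite strand over 1181 bases, and the strand setting of the counting was not given in the sources used here. In all, 7 semaphorins were higher and 10 lower of 20.

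Of the semaphorin receptors, both neuropilins and 2 plexins were lower in DAT libraries and 2 plexins higher. Nrp2 (chr1:62742444-62857854, plus strand), the co-receptor of Sema3c and Sema3f, had 20.2, 27 and 41.1 CPM in old DAT and 17.7, 32.2 and 47.5 CPM in young DAT libraries, against 24.3, 86.7 and 100 CPM in old VGAT and 33.1, 62.5 and 81.8 CPM in young VGAT libraries. Its log2 fold change was -1.06 ± 0.16 (adjusted p = 4.08e-07). This too separated by batch: second-batch libraries gave -1.52 (adjusted p = 1.71e-11) and first-batch libraries -0.11 (adjusted p = 0.656), with a difference of -1.27 ± 0.25 (adjusted p = 1.16e-04). Nrp1, the co-receptor of Sema3a, gave -0.58 ± 0.14 over both batches (adjusted p = 3.89e-04), -0.85 in the second and -0.16 (adjusted p = 0.589) in the first. Plxna4 (-0.97 ± 0.10) and Plxna2 (-0.88 ± 0.09), which transmit class 3 signals with neuropilins and bind Sema6a, were lower in each batch, by more in the second (-1.21 and -1.12) than in the first (-0.57 and -0.51). Plxna2 had 35.2, 50.9 and 79.5 CPM in DAT against 86.8, 99.3 and 113 CPM in VGAT libraries, without overlap, although its exons overlap those of the antisense model Gm6403 over 2650 bases. Plxna1 gave 0.00 ± 0.11 (adjusted p = 0.981) over both batches and passed with opposite signs in each, -0.40 in the second and 0.68 in the first. Plxna3 and Plxnb2 did not pass over both batches, but passed in the second alone (-0.56 and -0.31), where the first gave 0.30 and 0.25 (adjusted p = 0.0557 and 0.0752). Plxnb1, a receptor of class 4 semaphorins, was higher (0.52 ± 0.09, adjusted p = 4.33e-06). Plxnb3, of the same class, gave 0.75 ± 0.36 (adjusted p = 0.0718). Plxnc1, the receptor of Sema7a, did not pass either (0.14 ± 0.11, adjusted p = 0.286), with -0.19 (adjusted p = 0.0614) in the second batch and 0.77 (adjusted p = 0.00108) in the first. With batch nested in model Plxnc1 passed (0.27, adjusted p = 0.0095). Plxnd1, the receptor of Sema3e, was higher (medians 6.79 and 3.56 CPM, 0.88 ± 0.29, adjusted p = 0.00788), with 0.36 (adjusted p = 0.443) from second-batch and 1.84 from first-batch libraries. It did not pass with limma-voom or the replicate block.

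Ephrins gave 2 higher and 4 lower of 7. Efnb2, a transmembrane ephrin of neurons and arteries, was lowest relative to VGAT, with medians of 11.6 CPM in DAT and 27.8 CPM in VGAT libraries (-1.16 ± 0.20, adjusted p = 4.68e-06). Second-batch libraries gave -1.68 and first-batch libraries -0.19 (adjusted p = 0.42). The GPI-anchored ephrins Efna3 (-0.68 ± 0.09, adjusted p = 2.33e-08) and Efna5 (-0.66 ± 0.11, adjusted p = 1.34e-06) were lower as well. Efna3 was lower in each batch (-0.62 in the second and -0.86 in the first), and Efna5 was farther from 0 in second-batch (-0.90) than in first-batch libraries (-0.28, adjusted p = 0.0715). Efnb3, the ephrin with the highest level per length in both models, was higher by 0.26 ± 0.08 (adjusted p = 0.00458), with 0.27 in the second batch and 0.25 (adjusted p = 0.171) in the first. Efna1 was higher (1.59 ± 0.56, adjusted p = 0.013) at medians of 1.1 and 0.339 CPM, and was at 0 in 3 DAT libraries and 1 VGAT library. It gave 1.39 (adjusted p = 0.142) in the second batch and 1.91 (adjusted p = 0.0425) in the first, and did not pass with limma-voom or the replicate block.

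Among the 14 Eph receptors, 3 were higher and 7 lower in DAT libraries. Epha8 (chr4:136656730-136684202, minus strand), a receptor of the A class, had 0.645, 4.82 and 5.48 CPM in old DAT and 0.98, 2.07 and 6.48 CPM in young DAT libraries, against 12.5, 16.9 and 22.6 CPM in old VGAT and 14.8, 17.3 and 19.2 CPM in young VGAT libraries. The log2 fold change was -2.47 ± 0.20 (5.54-fold lower, adjusted p = 7.41e-14), with -2.64 in the second and -2.20 in the first batch. Ephb1 (chr9:101799327-102231898, minus strand), a receptor of ephrin-B ligands, had 15.8, 21.6 and 29.2 CPM in old DAT and 8.65, 17.1 and 29.9 CPM in young DAT libraries, against 57.4, 71.4 and 116 CPM in old VGAT and 71.9, 80.2 and 97.5 CPM in young VGAT libraries. The log2 fold change was -2.03 ± 0.11 (4.1-fold lower, adjusted p = 3.47e-19), with -1.98 in the second and -2.22 in the first batch. Neither gene overlapped between the models. Epha7 (-1.22 ± 0.11, adjusted p = 1.1e-12) and Ephb3 (-1.05 ± 0.14, adjusted p = 2.15e-08), receptors of ephrin-A and ephrin-B ligands, were lower in each batch, Epha7 at -1.51 in the second and -0.69 in the first and Ephb3 at -0.87 and -1.46. Epha1 also passed (-1.72 ± 0.72, adjusted p = 0.0371), but was at 0 in 10 of 19 DAT and 2 of 18 VGAT libraries, with at most 30 counts, and its exons overlap those of Zyx on the opposite strand over 1456 bases. Its value was -3.49 (adjusted p = 0.0163) in the second batch and -1.14 (adjusted p = 0.172) in the first, and -2.78 without the DAT library Young Female 3. The call of Epha1 was lost with no filter, with no batch term, with batch nested in model (adjusted p = 0.0528), and without any 1 of 8 libraries, which were DAT Old Female 3 and 4, DAT Old Male 1, 4 and 5, VGAT Old Female 2, VGAT Old Male 3 and VGAT Young Male 4. Ephb4, known from veins, was higher (medians 2.42 and 0.758 CPM, 1.52 ± 0.34, adjusted p = 1.82e-04). Epha4, the highest Eph receptor per length, had medians of 113 CPM in both models (0.03 ± 0.09, adjusted p = 0.832), yet second-batch libraries gave -0.32 (adjusted p = 1.67e-04) and first-batch libraries 0.60 (adjusted p = 1.66e-04). With batch nested in model Epha4 passed (0.15, adjusted p = 0.0281). Epha5, a receptor of ephrin-A5, was higher by 0.17 ± 0.07 (adjusted p = 0.038), with -0.07 in the second batch and 0.59 in the first. The call of Epha5 was lost under limma-voom, with no filter, with no batch term, and without any 1 of 11 libraries, which were DAT Old Female 1, DAT Young Female 1, 2 and 3, DAT Old Male 2, 3 and 5, VGAT Old Female 1, VGAT Young Female 3, VGAT Old Male 1 and VGAT Young Male 1.

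Members with known roles in vessels went both ways, and were named after their values were seen: Robo4, Ephb4, Efna1, Plxnd1, Unc5b and Sema3g were higher in DAT libraries, and Efnb2 (-1.16) and Nrp1 (-0.58) lower. Of the 13 endothelial and mural markers, 12 were higher in DAT and none lower, at a median of 1.65 on the log2 scale; Cldn5, a tight junction gene of endothelium, gave 2.17 and Flt1, a VEGF receptor, 1.66. Astrocyte markers were 19 higher and 1 lower of 20 (median 1.45), and oligodendrocyte markers 14 higher and 1 lower of 15 (median 1.48). The part of these cells in the members' differences was not tested.

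Other genes of the pathway were taken from 2 lists. Among 20 guidance partners, co-receptors and adhesion molecules, 2 were higher and 11 lower in DAT libraries (median -0.27, against 0.01 over all genes). Of all genes, 30.0% were higher and 30.4% lower. The summed CPM of the 20 partners differed in direction by batch. Its median was 2808 in DAT and 2600 in VGAT first-batch libraries, and 2454 and 3102 in second-batch libraries. Fold changes of single listed genes within a batch are not given here. The 2 higher were Neo1, the netrin and RGM receptor neogenin (0.47, adjusted p = 4.16e-07), and its ligand Rgma (0.50, adjusted p = 1.22e-06). The adhesion protein Flrt2, a ligand of Unc5d, was lower at -1.34 (adjusted p = 6.39e-12). Among 40 signalling genes downstream of guidance receptors, 13 were higher and 19 lower (median -0.14). Their summed CPM had medians of 5051 in DAT and 5329 in VGAT first-batch libraries, and 4993 and 5675 in second-batch libraries. Limk1, a kinase of the actin severing protein cofilin (-1.33, adjusted p = 2.38e-23), Mical3, of the plexin-associated MICAL family (-1.23, adjusted p = 8.37e-19), the kinase Pak1 (-0.64, adjusted p = 1.93e-15) and the exchange factor Trio (-0.91, adjusted p = 6.73e-14) were lower.

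With age no member passed the test. Old and young mice were compared in DAT libraries (67 members tested) and VGAT libraries (68 tested) over both sexes, and 0 members passed, where 0.00672% and 0.0256% of all genes did. In DAT females and DAT males 0 passed (0.00% of all genes in each), and in VGAT females and VGAT males 0 passed, where 0.0320% and 0.0315% of all genes did. DESeq2 and limma-voom also passed 0 members in each of these. At an unadjusted p below 0.05 there were 3 members in DAT libraries, where 5.28% of all genes were below, and 6 in VGAT libraries, where 5.98% were. By sex there were 4 in DAT females (6.06% of members, against 4.05% of all genes), 4 in DAT males (5.97% against 5.50%), 6 in VGAT females (8.82% against 5.59%) and 7 in VGAT males (10.1% against 5.12%). The median log2 fold change, old over young, was 0.04 over the members in DAT and 0.01 in VGAT libraries. Under 0.25 in size were 56 members in DAT and 57 in VGAT libraries. The SE was under 0.15 for 29 members in DAT and 49 in VGAT libraries, and was larger for the rest.

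**Figure D5:**
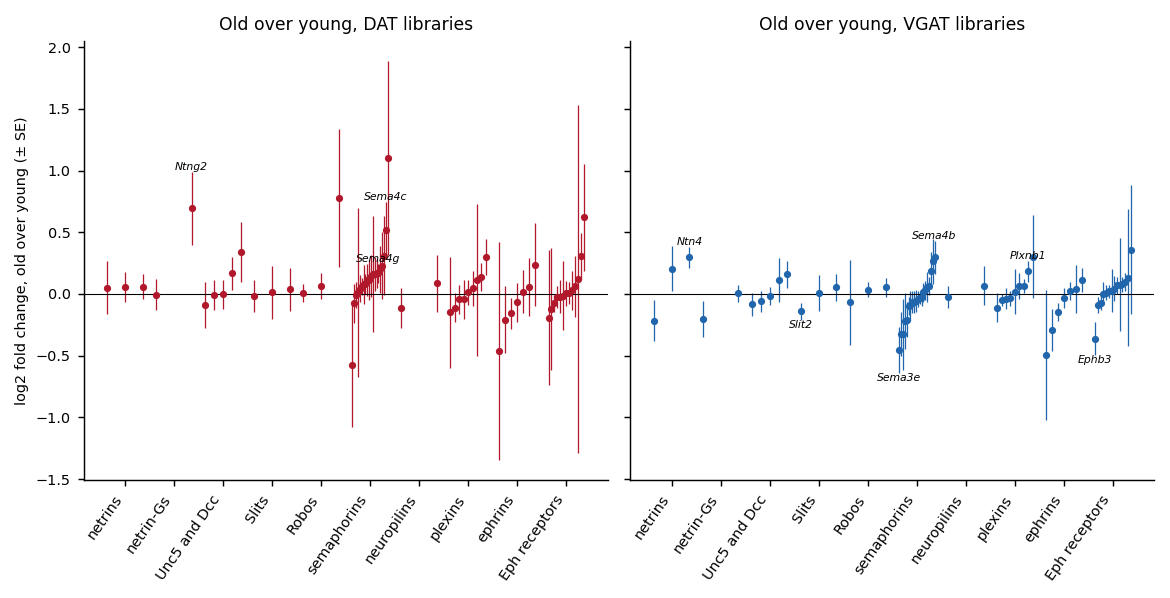
Log2 fold change, old over young, with its SE, for each member in DAT libraries (left) and VGAT libraries (right), by family. Named genes had an unadjusted p below 0.05. No member had an adjusted p below 0.05, and most points lie within 0.25 of 0.

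The members with the smallest p in each comparison are given as values. In VGAT libraries, Ntn4 had 16.5, 18.9 and 20 CPM in old and 11.2, 15.3 and 18.4 CPM in young mice (0.30 ± 0.08, edgeR adjusted p = 0.463). In VGAT females alone it had 18.5, 19.8, 19.4, 18.4 and 19.7 CPM in old mice, against 13.3, 15.4 and 18.4 CPM (lowest, median, highest) in young mice (0.33 ± 0.10, adjusted p = 0.674). All old females lay at or near the highest young female. By batch, Ntn4 in VGAT libraries of both sexes gave 0.38 in the second and 0.10 in the first. In DAT libraries Ntn4 showed no such value (0.05 ± 0.12), and the difference between models in the effect of age was -0.25 ± 0.16 (DAT minus VGAT). In VGAT females, Epha5 (0.16 ± 0.05, adjusted p = 0.686) and Epha7 (0.20 ± 0.06, adjusted p = 0.719) came next.

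In VGAT males, Sema3c had 21.7, 21.1 and 22.7 CPM in old mice, against 46.3, 35.5, 22.4 and 41.9 CPM in young mice (-0.73 ± 0.19, adjusted p = 0.692). The groups overlapped by 1 young library. With no filter on low counts this value passed (adjusted p = 4.33e-05). Plxna3, a class 3 semaphorin receptor, had 16.3, 23.1 and 19.7 CPM in old males and 28, 27.2, 22.1 and 34.2 CPM in young males (-0.48 ± 0.16, adjusted p = 0.894). Plxna4, of the same receptor class, had 139, 170 and 175 CPM in old males and 172, 221, 193 and 175 CPM in young males (-0.21 ± 0.09, adjusted p = 0.944). Both also had the smallest p of the members when the effect of age was compared between sexes in VGAT libraries (male minus female), at -0.60 ± 0.20 and -0.26 ± 0.09 with an adjusted p of 0.967 each.

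In DAT males, Epha8 had 5.23, 4.82, 5.48, 4.83 and 4.47 CPM in old mice, against 2.45, 2.09, 1.38, 2.43 and 1.55 CPM in young mice. The log2 fold change was 1.29 ± 0.31, with an adjusted p of 0.783. Over both sexes Epha8 gave 0.62 ± 0.44 in DAT libraries, and the effect of age differed between sexes by 1.57 ± 0.89 (male minus female). In DAT females, Sema4c, a transmembrane class 4 semaphorin, had 12.7, 12.6, 14.4 and 12.2 CPM in old mice, against 9.66, 9.21, 3.49, 3.98 and 4.34 CPM in young mice (1.35 ± 0.38, adjusted p = 1.00). The 2 highest young values were those of the first-batch libraries, Young Female 1 and 2, and the lowest was that of Young Female 3. Second-batch females alone gave 1.73 and first-batch females, 1 old and 2 young, 0.41, so that the difference lay mainly in the second batch. Sema4c exons overlap the antisense model D430040D24Rik over 1091 bases. Over both sexes Ntng2 had the smallest p in DAT libraries, with 3.73, 7.62 and 10.1 CPM in old and 1.55, 4.66 and 11 CPM in young mice (0.69 ± 0.29, adjusted p = 0.931). It also had the smallest p in the test of whether the effect of age differed between models (DAT minus VGAT, 0.90 ± 0.33, adjusted p = 1.00), since it gave -0.20 ± 0.15 in VGAT libraries. Between sexes in DAT libraries, Sema4c again came first (male minus female, -1.32 ± 0.41, adjusted p = 1.00), with -1.63 in the second batch and -0.59 in the first.

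In the 3 tests of an interaction, age by sex in DAT, age by sex in VGAT and age by cell type, 0 members passed and 0.00% of all genes passed in each. At an unadjusted p below 0.05 there were 4 members (5.88%, against 4.25% of all genes), 6 members (8.70% against 5.09%) and 2 members (2.90% against 2.76%) in that order. Markers of glia also shifted with age by values that did not pass over both sexes. The log2 fold change, old over young, was above 0 for all 20 astrocyte markers in DAT libraries (median 0.41) and for 19 in VGAT libraries (median 0.28), and for all 15 oligodendrocyte markers in DAT libraries (median 0.31) and 13 in VGAT libraries (median 0.29). Microglia markers were above 0 for 13 of 14 tested in DAT libraries (median 0.67) and for 12 of 15 in VGAT libraries (median 0.37). Dopamine neuron markers were above 0 for 9 of 16 in DAT libraries (median 0.01) and for 15 of 16 in VGAT libraries (median 0.18), with 0 past the threshold. In VGAT females all 16 were above 0 (median 0.23), and in VGAT males 15 (median 0.18). GABA neuron markers were above 0 for 3 of 11 in DAT libraries (median -0.07) and for 4 of 11 in VGAT libraries (median -0.05). By sex in VGAT libraries, oligodendrocyte markers were above 0 for 14 of 15 in males (median 0.87), the comparison in which Sema3c and Plxna3 had values below 0, and below 0 for all 15 in females (median -0.22), with 0 past the threshold in either. Microglia markers were below 0 for 11 of 15 in VGAT males (median -0.41) and above 0 for 14 of 15 in VGAT females (median 0.80). The part of these cells in the members' values was not tested.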

How the data were processed

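Per the labels and methods, the authors trimmed reads, aligned them with STAR 2.7.10b to mm39 (GRCm39) and counted reads per gene with featureCounts; its version, annotation and strand setting are not given in the sources used here. The deposited tables hold raw counts per gene for 37 libraries, before the low-count filter, removal of glial genes and batch correction that the authors applied later. Input fractions were not used here. Library totals of 13841253 to 38235015 put 1 CPM at 13 counts or more.

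Groups came from the column labels. Differences were tested in R 4.3.3 by edgeR 4.0.16 (TMM scaling, filterByExpr with a minimum count of 10, robust quasi-likelihood fit, batch as a term, Benjamini-Hochberg over all genes tested, adjusted p below 0.05), in 12 comparisons: DAT over VGAT, old over young, and interactions. CPM are TMM-scaled. The script was tested on simulated data. All 70 pairs of libraries within a group were checked for duplicates (lowest chi-square per degree of freedom 5.22, so none). Exon lengths and positions came from a GRCm39 annotation, promoters from RefSeq.

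Members, gene lists and the rule for named genes were chosen with earlier results of these data known. Named are the 12 members of largest fold change in each direction, in each age comparison the 3 of lowest p per direction, the highest of each family per length, genes known from dopamine axon pathfinding, and their ligand or receptor partners; other members given by name in a count, such as Epha3 and Epha6, were named after their values were seen. Alternatives were DESeq2 1.42.0, limma-voom (limma 3.58.1), RLE factors, other filters, no batch term, a sex term, batch nested in model, single batches, a replicate block and each library left out.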

Additional observations from a re-analysis of the deposited data

Results flagged for a closer look

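For each of the 50 named members, the 4 groups of model and age were searched for a library far from all others of its group. Of 200 such sets, 25 held one. The limit used gives about 1 in 20 by chance for independent normal values of 1 population. These sets pool sexes and batches and share libraries, so that rate does not apply to them.

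In old DAT libraries, Old Female 2 was apart in 4 members: low in Efnb2 (1.35 CPM, the next library 8.94) and Ntn3 (5.42, next 13.6), and high in Ephb3 (9.2, next 5.53) and Sema3b (13.8, next 6.27). Old Female 1 was high in Plxnc1 (108 CPM, next 72.9) and in Epha1 (0.608, next 0.11). Old Male 5, 1 of the libraries rich in Rn18s-rs5, was high in Plxna4 (154 CPM, next 109) and Unc5b (21, next 12.8), and Old Male 4 was high in Sema3a (8.26, next 3.51). In young DAT libraries, Young Male 3 was high in Ntng2 (11 CPM, next 5.38) and Sema6a (22.2, next 15.9), Young Male 5 in Robo4 (7.19, next 3.07), and Young Female 3, the other library rich in Rn18s-rs5, in Epha1 (1.65, next 0.365).

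In old VGAT libraries, Old Male 1 was low in Sema3f (13.7 CPM, next 22.7), Sema6b (101, next 143) and Unc5a (52.6, next 73.2). In young VGAT libraries, Young Male 1 was low in Sema6b as well (79.2 CPM, next 131) and in Unc5a (45.4, next 71.1). Old Female 1 was high in Sema3e (56.9 CPM, next 31.3) and Old Female 5 in Nrp1 (20.6, next 16.7). Young Male 3 was high in Efna1 (1.18 CPM, next 0.61) and low in Sema4c (5.97, next 9.82), Young Male 2 was high in Epha7 (65.7, next 56.8), Young Female 6 in Ntng2 (7.62, next 5.57) and Young Female 2 in Sema3d (5.89, next 5.02). Without Old Male 1, 51 members passed over both ages (18 higher, 33 lower in DAT), and without the DAT library Old Female 2, 49 passed (19 higher, 30 lower).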

How the results depend on the processing

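Over both ages, the count of members past the threshold (51) was 45 to 52 under DESeq2, limma-voom, RLE factors, a minimum count of 30, no filter, no batch term, a sex term, batch nested in model (49) and a replicate block (47), and 48 to 53 with 1 library left out; in old mice it was 39 to 44 and in young mice 38 to 48. Limma-voom moved the median of all genes to -0.12, and gave 16 members higher and 35 lower. Age counts of 0 stayed 0 to 0 with any library left out. They became 1 in VGAT libraries (second batch alone, Nrp2), 2 in VGAT females (second batch alone, Epha5 and Slit1), and 1 with no filter in VGAT males and in age by sex in VGAT (Sema3c in both). Shares of all genes under these settings are not given here. First-batch DAT females, 1 old and 2 young, are left out of these counts, since a single old library stands for its group. Their fit gave -0.80 for Ntng1 and -0.69 for Plxna2. The cause was not tested. Of values of named members under an alternative, 3650 kept direction and side of the threshold, 74 lost the call, 39 gained it and 51 changed sign. These totals include age comparisons, in which no member passed, and fits with 1 library left out, which share most of their data. With first-batch libraries alone 69 kept both, 11 lost the call, 5 gained it and 13 changed sign. With second-batch libraries alone these counts were 87, 3, 5 and 9. Of the lost calls for DAT over VGAT, limma-voom ended those of Efna1 (0.86), Epha5 (0.15), Plxnd1 (0.64) and Sema4b (0.22), the replicate block those of Efna1 (1.36), Plxnd1 (0.55) and Sema4b (0.25), no filter those of Epha1 (-1.79), Epha5 (0.12) and Sema4b (0.21), no batch term those of Epha1 (-1.47), Epha5 (0.13), Robo1 (-0.19) and Sema4b (0.24), and batch nested in model those of Epha1 (-1.59), Robo1 (-0.14) and Sema4b (0.23). Leaving out 1 library ended those of Epha1 (8 libraries), Epha5 (11) and Sema4b (24), and a single batch the others. Of the gained calls for DAT over VGAT, batch nested in model added Epha4 (0.15), Ntng1 (0.20) and Plxnc1 (0.27). DESeq2 added Plxnb3, a minimum count of 30 Ntng1, no filter Plxna3, and limma-voom Plxna3 and Sema3a.

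Signs changed for DAT over VGAT with second-batch libraries alone in Epha4 (-0.32), Epha5 (-0.07), Plxna1 (-0.40) and Plxnc1 (-0.19), and with first-batch libraries alone in Dcc (0.32), Plxna3 (0.30), Robo1 (0.31), Sema3a (0.20), Sema4c (0.13) and Slit1 (0.16). Epha4 gave -0.02 with no filter and -0.02 to 0.06 with a library left out. Plxna1 gave -0.00 with limma-voom or a sex term, -0.04 with no filter, -0.02 with the replicate block and -0.06 to 0.04 with a library left out. For old over young, first-batch libraries alone gave Ephb1 in DAT females (-0.03), Ephb3 in VGAT (0.09), and Ephb1 (0.02) and Ephb3 (0.17) in VGAT females. Second-batch libraries alone gave Efnb3 (0.09), Epha5 (0.01) and Sema3e (0.01) in DAT and Efnb3 in DAT males (0.19), and no batch term gave Efna5 in VGAT females (0.06). For interactions, first-batch libraries alone gave Ntn4 (0.12) and Sema7a (-0.14) by cell type and Plxnb3 by sex in VGAT (-0.39), and second-batch ones Efnb3 by sex in DAT (0.18). First-batch libraries alone could not be fitted for VGAT males.

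Replicate numbers did not pair the mice: of 17 same-numbered old and young pairs, 2 had a correlation of residuals above 0.1 (-0.098 to 0.227), and 3 correlated best with their own number. Counts were lowest for Epha1, Robo3, Epha2 and Efna1, which were at 0 in some libraries.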
